A study of Arabidopsis thaliana with 12 samples.

Results

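The genes described here are EXO (AT4G08950), AT5G50915, AT1G13650, AT5G25240, AT1G55960, AT5G02230 and AT3G23550 of Arabidopsis thaliana. They were chosen by their measured signal: adding scv1 to the cpr5 mutant and adding svi1 to the cpr5npr1 double mutant moved each of them in the same direction. They are 7 genes, each with 1 probe set on the Affymetrix ATH1 array, out of 22746 probe sets without controls, and all 7 were among the 15922 probe sets left for testing after the dimmest 30% were removed. In the lines with scv1 or svi1, 6 of them were lower than in all other genotypes and AT3G23550 was higher.

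RNA came from the aerial parts of plants 2 weeks old, grown at 23 C and 70% humidity with 16 h of light, and each of the 6 genotypes had 2 arrays. The groups were cpr5scv1 (cpr5 with the mutation scv1), cpr5npr1svi1 (cpr5 and npr1 with svi1), the double mutant cpr5npr1, the single mutants cpr5 and npr1, and the Columbia wild type (WT). All groups other than npr1 and WT thus carried cpr5, and cpr5npr1svi1 also carried npr1. The labels call cpr5npr1 fully resistant to the downy mildew P. parasitica and give cpr5scv1 the susceptibility of the wild type, whereas for cpr5npr1svi1 they state only that it is a triple mutant. They give neither the alleles nor whether scv1 and svi1 were studied in more than 1 line, nor whether plants were pooled or grown apart for the 2 arrays of a genotype. The p-values below therefore rest on array-to-array spread alone, and that spread may be technical.

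CPR5 is a nuclear envelope protein whose loss leaves defence genes active and plants small and spotted with lesions, and NPR1 relays the salicylic acid signal to defence genes. Growth and defence are often opposed in such plants, and brassinosteroids are a main class of growth hormones in shoots. EXO encodes an extracellular protein that is induced by brassinosteroids and promotes cell expansion in leaves. AT5G50915 encodes a transcription factor of the basic helix-loop-helix family, AT1G55960 a protein with a START-type lipid-binding domain, AT5G02230 a hydrolase of the haloacid dehalogenase-like family, and AT3G23550 a membrane transporter of the MATE (multidrug and toxic compound extrusion) family. The gene table used here lists AT1G13650 and AT5G25240 by locus code alone, and no role is given for them.

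Each value is a MAS5 signal, which is linear, and the arrays share one scale (trimmed mean 100.01 in each). The median signal ran from 36.8 to 43.5 between arrays, and the 2 arrays of a group correlated at 0.931 (WT) to 0.967 (cpr5scv1) over the probe sets tested. That median followed genotype: it was 36.8 to 38.8 in the arrays of WT and npr1, and 41.3 to 43.5 in those with cpr5. Scaling to one median was run as an alternative. A signal of 7.76, the 95th percentile of 27 bacterial control sets, was taken as background, and all 7 genes lay above it in all 12 arrays. Of 12 root marker genes, 5 had a named probe set, and AT5G17820, AT5G66390 and AT3G01190 were below background in every array. AT4G11290 was below it in 4 arrays and EXPA7 in 6, with highest signals of 25.2 and 18.3. The summed signal of the 5 was 21.4 and 40.3 for cpr5scv1, 25.0 and 39.2 for cpr5npr1svi1, 24.2 and 15.8 for cpr5npr1, 15.6 and 9.09 for cpr5, 31.0 and 34.3 for npr1, and 24.9 and 18.1 for WT. Its part in the results was not tested. None of the 8 leaf and 2 flower marker genes had a named probe set, so the aerial tissue was not checked with them. In such bulk samples, fewer cells of a type and less RNA per cell cannot be told apart.

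EXO, the growth-promoting extracellular protein gene, had signals of 134 and 179 in cpr5scv1 and 149 and 285 in cpr5npr1svi1. The values were 638 and 727 for cpr5npr1, 1163 and 965 for cpr5, 544 and 610.3 for npr1, and 550.5 and 579.8 for WT. The 4 arrays with scv1 or svi1 were the lowest of the 12, cpr5 was the highest group, and npr1 and WT overlapped. In the contrasts that chose the gene, EXO was 6.85-fold lower in cpr5scv1 than in cpr5 (log2 difference -2.78, SE 0.268) and 3.31-fold lower in cpr5npr1svi1 than in cpr5npr1 (log2 difference -1.73, SE 0.268). The second of these was unequal between replicates, at -2.10 in replicate 1 and -1.35 in replicate 2.

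The transcription factor gene AT5G50915 had 74.8 and 59.8 in cpr5scv1, and 55.7 and 38.8 in cpr5npr1svi1. The values were 275 and 173 for cpr5npr1, 282 and 256 for cpr5, 138 and 118 for npr1, and 127 and 90.2 for WT. Its order was thus like that of EXO: highest in cpr5 and cpr5npr1, which overlapped, lower in npr1 and WT, which overlapped too, and lowest in the lines with scv1 or svi1. The difference was -2.01 on the log2 scale (SE 0.271) between cpr5scv1 and cpr5, and -2.23 (SE 0.271) between cpr5npr1svi1 and cpr5npr1. In both cases it was similar in replicate 1 (-1.91 and -2.30) and in replicate 2 (-2.10 and -2.15).

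AT3G23550, the transporter gene, went the other way. It had 484 and 325 in cpr5scv1 and 415 and 420.2 in cpr5npr1svi1, against 53.6 and 47.5 for cpr5npr1, 22.7 and 44.1 for cpr5, 37.2 and 71.0 for npr1, and 62.6 and 25.4 for WT. The lowest of the 4 arrays with scv1 or svi1 was 325 and the highest of the other 8 was 71.0, and among the 4 genotypes without scv1 and svi1 each group overlapped its next in order. The gene was 12.5-fold higher in cpr5scv1 than in cpr5 (log2 difference 3.65, SE 0.450), with 4.41 in replicate 1 and 2.88 in replicate 2. It was 8.28-fold higher in cpr5npr1svi1 than in cpr5npr1 (log2 difference 3.05, SE 0.450), with 2.95 in replicate 1 and 3.14 in replicate 2. AT3G23550 had the largest difference of the 7 genes in both contrasts.

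AT1G55960, the lipid-binding domain gene, had 125 and 139 in cpr5scv1 and 155 and 106 in cpr5npr1svi1. The values were 263 and 257 for cpr5npr1, 533 and 450.1 for cpr5, 676 and 552 for npr1, and 711 and 732 for WT. Here WT was highest, and npr1, cpr5 and cpr5npr1 followed in steps whose arrays did not overlap, while the arrays of the lines with scv1 and svi1 did overlap. Between cpr5npr1 and cpr5, the arrays of 29.7% of all probe sets did not overlap. In the main fit the gene was not called in npr1 against WT (limma adjusted p = 0.989) or cpr5 against WT (0.114). Nor was it called in cpr5npr1 against cpr5 (limma adjusted p = 0.378). The log2 difference was -1.90 (SE 0.196) between cpr5scv1 and cpr5 and -1.02 (SE 0.196) between cpr5npr1svi1 and cpr5npr1. The second value was -0.77 in replicate 1 and -1.28 in replicate 2. It was -1.30 without cpr5npr1svi1 replicate 1 and -0.75 without cpr5npr1svi1 replicate 2.

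AT1G13650 had a similar order, with 84.8 and 82.7 in cpr5scv1, 53.1 and 69.3 in cpr5npr1svi1, 158 and 167 for cpr5npr1, 291 and 267 for cpr5, 412 and 385 for npr1, and 403 and 501 for WT. Only npr1 and WT overlapped among neighbours in that order. The gene was not called in cpr5npr1 against cpr5 (limma adjusted p = 0.446), where the arrays of 29.7% of all probe sets did not overlap. Its log2 difference was -1.73 (SE 0.176) between cpr5scv1 and cpr5 and -1.42 (SE 0.176) between cpr5npr1svi1 and cpr5npr1.

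AT5G25240 had 32.5 and 21.7 in cpr5scv1, 24.8 and 23.0 in cpr5npr1svi1, 98.9 and 93.35 for cpr5npr1, 188 and 87.5 for cpr5, 168 and 119 for npr1, and 146 and 93.4 for WT. Among the 4 genotypes without scv1 and svi1 each overlapped its next in order, while the arrays of cpr5npr1 lay below those of npr1. The log2 difference was -2.27 (SE 0.360) between cpr5scv1 and cpr5 and -2.01 (SE 0.360) between cpr5npr1svi1 and cpr5npr1. The first value was -1.72 without cpr5 replicate 1 and -2.82 without cpr5 replicate 2.

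The hydrolase gene AT5G02230 had 38.6 and 37.7 in cpr5scv1, 46.3 and 37.4 in cpr5npr1svi1, 87.6 and 83.1 for cpr5npr1, 108 and 106 for cpr5, 68.7 and 91.0 for npr1, and 142 and 123 for WT. WT and cpr5 were the highest groups, and cpr5npr1 overlapped npr1. The log2 difference was -1.49 (SE 0.196) between cpr5scv1 and cpr5 and -1.04 (SE 0.196) between cpr5npr1svi1 and cpr5npr1, the smallest among the 7 genes in the first contrast.

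**Figure D1:**
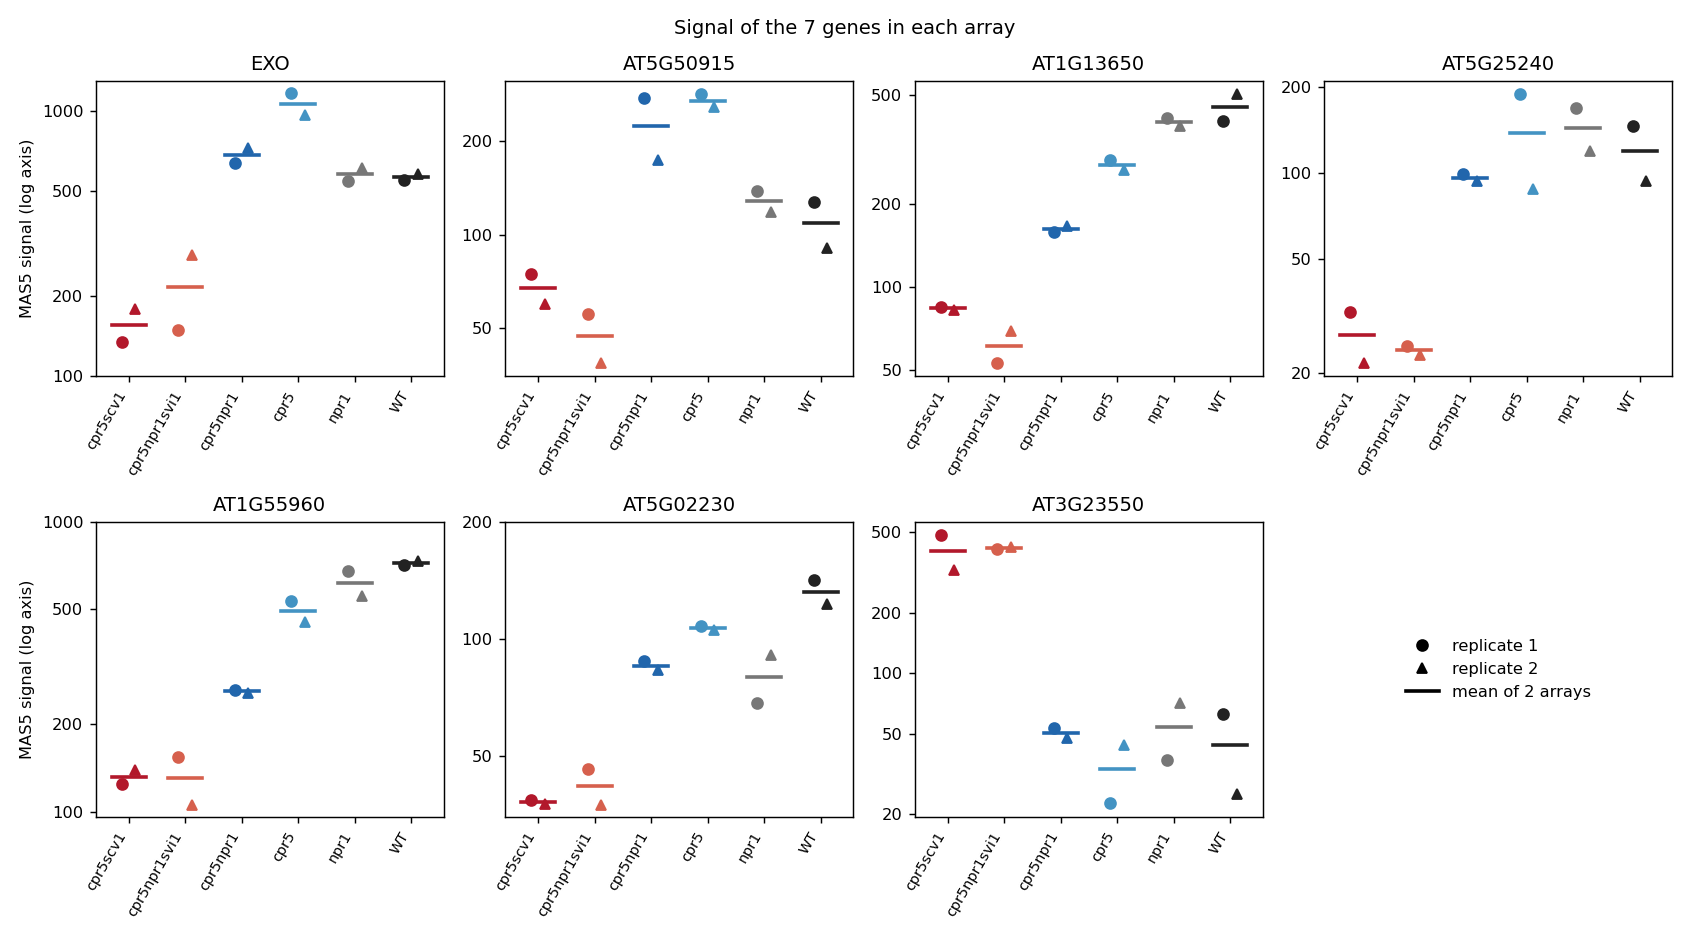
MAS5 signal of the 7 genes in each array, on log axes, for cpr5scv1, cpr5npr1svi1, cpr5npr1, cpr5, npr1 and WT; circles are replicate 1, triangles replicate 2, and bars the mean of 2 arrays. In 6 panels the 4 arrays with scv1 or svi1 lie below the other 8, and for AT3G23550 they lie above them.

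For each of the 7 genes, the 4 arrays with scv1 or svi1 did not overlap the other 8. Over all probe sets tested, 2.59% had these 4 arrays below the other 8 and 1.98% had them above. The choice of the genes makes such a separation likely, so nothing is read from it. Between cpr5npr1svi1 and cpr5scv1 themselves, the arrays of AT5G50915 (log2 difference -0.52, SE 0.271) and AT1G13650 (-0.47, SE 0.176) did not overlap, as for 44.9% of all probe sets. Those of the other 5 genes did, with log2 differences from -0.15 for AT5G25240 to 0.41 for EXO.

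All 7 were called in both choosing contrasts, which is part of how they were found, at an adjusted p below 0.05 (limma, adjusted by Benjamini-Hochberg over all 15922 probe sets). At that threshold 0.804% of probe sets were called in cpr5scv1 against cpr5 (0.327% higher and 0.477% lower) and 1.15% in cpr5npr1svi1 against cpr5npr1 (0.829% higher and 0.32% lower). Both contrasts called 23 probe sets. Of these 23, 22 moved the same way in both, 16 lower and 6 higher, which is 0.138% of the probe sets tested. Besides the 7 genes they included 5 named genes and 10 probe sets with no usable gene name. Among the 7, AT1G55960 (-1.02) and AT5G02230 (-1.04) had the log2 differences nearest 0, both in cpr5npr1svi1 against cpr5npr1. Of the named genes outside the 7, AT1G65490 had -1.15 between cpr5scv1 and cpr5 and -1.14 between cpr5npr1svi1 and cpr5npr1, and AT2G29290 had -1.24 and -1.05. AT2G41120 had -0.92 and -1.16, and EXGT-A3, whose enzyme cuts and rejoins xyloglucan in the cell wall, had -1.12 and -0.91. The cytochrome P450 gene CYP71B6 was higher in both contrasts, at 1.19 and 0.85. The probe set called in opposite directions was that of IAGLU, at -1.23 between cpr5scv1 and cpr5 and 0.89 between cpr5npr1svi1 and cpr5npr1.

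**Figure D2:**
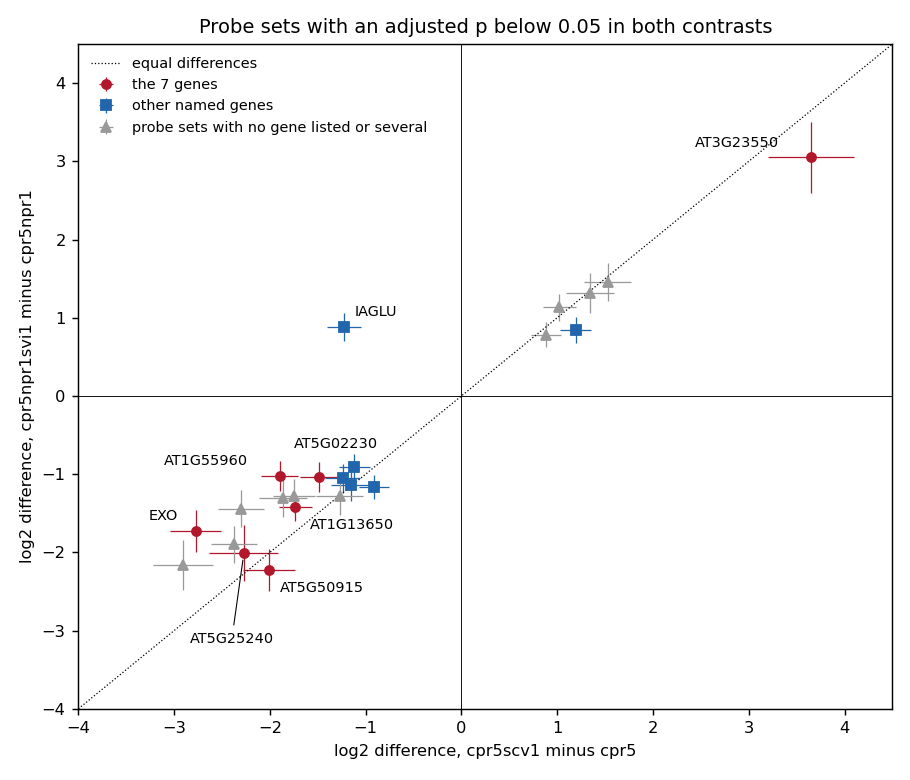
Log2 difference of cpr5scv1 minus cpr5 (horizontal) against cpr5npr1svi1 minus cpr5npr1 (vertical) for the 23 probe sets called in both contrasts, with bars for the SE. Circles are the 7 genes, squares other named genes and triangles probe sets with no usable gene name; AT3G23550 lies far from all others at 3.65 and 3.05, and IAGLU is the probe set with opposite signs.

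The number of probe sets called alike depended on single arrays. It was 47 without either WT array and between 2 and 9 without any 1 array of cpr5, cpr5npr1, cpr5scv1 or cpr5npr1svi1. Of the 7 genes, 0 were called in cpr5npr1svi1 against cpr5npr1 without cpr5npr1 replicate 1, 1 without cpr5npr1 replicate 2, 2 without either array of cpr5npr1svi1 and 4 without either array of cpr5scv1. Without the intensity trend 4 were called there, and 3 with only these groups fitted. In cpr5scv1 against cpr5, 2 were called without cpr5scv1 replicate 1, 4 without cpr5scv1 replicate 2, 3 without cpr5 replicate 1 and 5 without cpr5 replicate 2. With the replicate number as a block in the fit, all 7 were called in both contrasts, and 123 probe sets were called alike.

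Where the 7 genes lay relative to the wild-type level was asked by comparing the lines with scv1 and svi1 with WT. These comparisons share the arrays of those lines with the contrasts that chose the genes, so they are not independent of the choice. In cpr5scv1, AT1G13650, AT1G55960, AT5G25240, EXO and AT5G02230 fell and AT3G23550 rose, so 6 of 7 were called, while 22.4% of all probe sets were called (12.8% higher and 9.55% lower). AT1G55960 had 132 ± 10.1 in cpr5scv1 and 722 ± 14.8 in WT (SD, n = 2 each), a log2 change of -2.46 (SE 0.196, limma adjusted p = 2.5e-05). AT1G13650 had 83.8 ± 1.51 in cpr5scv1 and 452 ± 69.6 in WT, a log2 change of -2.42 (SE 0.176, limma adjusted p = 1.5e-05). The log2 change was -1.87 for EXO, -2.14 for AT5G25240, -1.79 for AT5G02230 and 3.32 for AT3G23550. Those 6 calls held in each of 12 fits that dropped 1 array.

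AT5G50915 was the exception in cpr5scv1, at 67.3 ± 10.6 in cpr5scv1 and 109 ± 26.3 in WT. Its log2 difference of -0.68 (SE 0.271) did not pass (limma adjusted p = 0.0988), although the arrays did not overlap, as for 59.4% of all probe sets. It passed with the replicate block (adjusted p = 0.0072), where 34.0% of all probe sets were called, and after scaling to one median (adjusted p = 0.0281).

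In cpr5npr1svi1 all 7 were called against WT, AT3G23550 higher and 6 lower, while 12.0% of all probe sets were called (7.88% higher and 4.08% lower). AT1G13650 was lowest relative to WT, at 61.2 ± 11.4 in cpr5npr1svi1 and 452 ± 69.6 in WT (log2 change -2.89, SE 0.176, limma adjusted p = 3.2e-05). The log2 change was -2.50 for AT1G55960, -2.29 for AT5G25240, -1.67 for AT5G02230, -1.46 for EXO, -1.20 for AT5G50915 and 3.39 for AT3G23550. The AT5G50915 call (adjusted p = 0.0166) was lost without WT replicate 1 (0.101), without cpr5npr1svi1 replicate 2 (0.141) and in a fit of these 2 groups alone (0.079). The EXO call (adjusted p = 0.00604) was lost in a fit of these 2 groups alone (0.0578) and held in the 12 fits that dropped 1 array. In the main fit the 6 lower genes thus lay below WT in cpr5npr1svi1, and 5 of them in cpr5scv1. For AT5G50915 and EXO this did not hold in the other fits just given. The arrays of both lines also served to choose the genes.

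**Figure D3:**
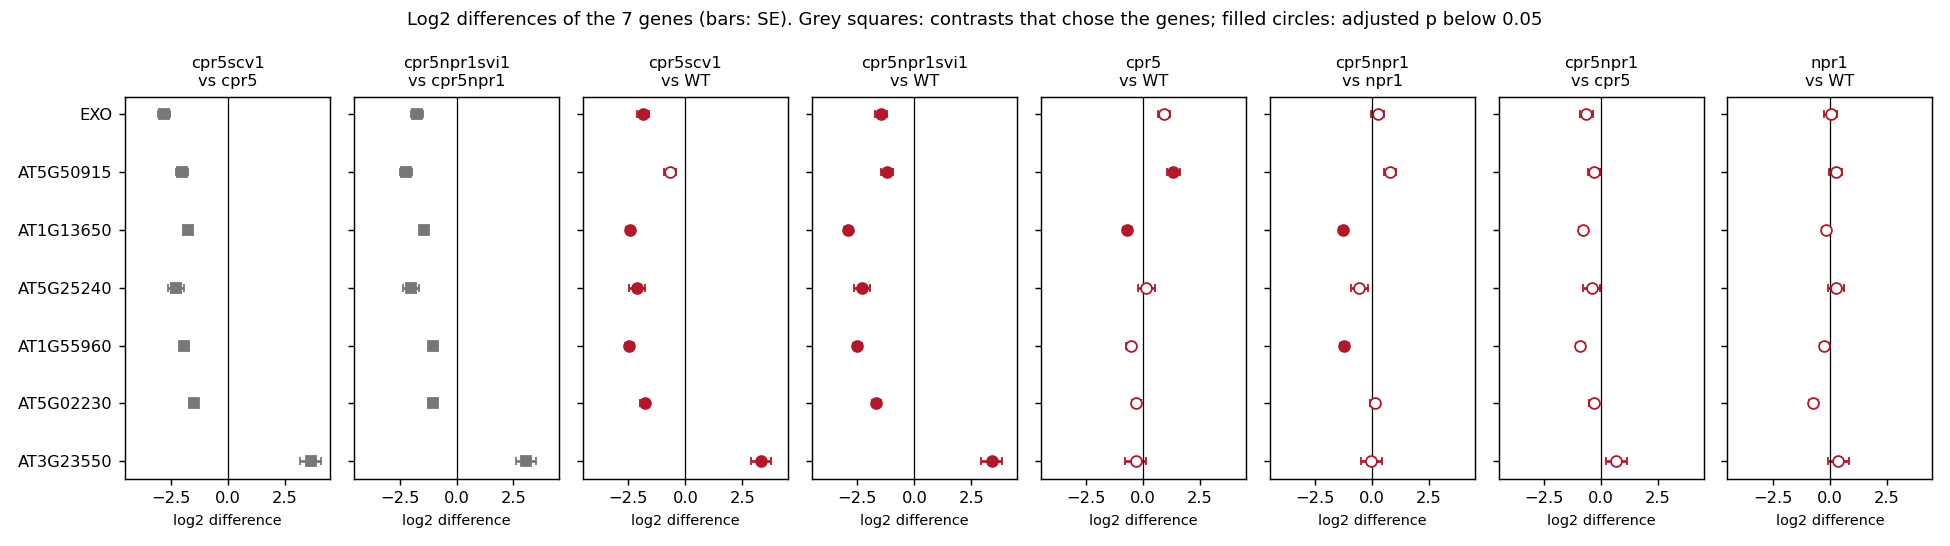
Log2 differences of the 7 genes in 8 comparisons, with bars for the SE. Grey squares mark the 2 contrasts that chose the genes, filled circles an adjusted p below 0.05 and open circles no call; in cpr5 against WT the genes lie on both sides of 0, while in both lines with scv1 or svi1 against WT 6 lie left of 0 and AT3G23550 right of it.

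The effect of cpr5 itself did not run one way over the 7 genes. Against WT, AT5G50915 rose and AT1G13650 fell in cpr5, so 2 of 7 were called, where 8.71% of all probe sets were called (6.56% higher and 2.15% lower). The comparison shares the cpr5 arrays with the scv1 contrast. AT5G50915 averaged 269 ± 17.8 in cpr5 and 109 ± 26.3 in WT, and rose by 1.33 (log2, SE 0.271, limma adjusted p = 0.0129). Dropping WT replicate 2 (0.0559) or either cpr5 array (0.0932 and 0.0646) ended the call. AT1G13650 averaged 279 ± 16.6 in cpr5 and 452 ± 69.6 in WT, a log2 change of -0.69 (SE 0.176, limma adjusted p = 0.0355). That call did not survive dropping WT replicate 2 (0.143), cpr5 replicate 1 (0.121) or 2 (0.184), npr1 replicate 1 or 2 (both 0.0542) and cpr5scv1 replicate 1 (0.0565) or 2 (0.0566). It was also lost after quantile normalization (0.0612), without the intensity trend (0.0606) and in a fit of these 2 groups alone (0.144).

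EXO had 1064 ± 140 in cpr5 and 565 ± 20.7 in WT, with a log2 difference of 0.91 (SE 0.268) that did not pass (limma adjusted p = 0.0636). It passed with the replicate block (0.0193), after quantile normalization (0.04996), with a pseudocount of 32 (0.043), and without cpr5npr1svi1 replicate 1 (0.0177) or 2 (0.0179). AT1G55960 had 492 ± 58.8 in cpr5 and 722 ± 14.8 in WT (limma adjusted p = 0.114), and passed with the replicate block (0.0396) and after scaling to one median (0.031). With the block, 4 of the 7 genes were called, where 17.4% of all probe sets were. AT5G25240, AT5G02230 and AT3G23550 had log2 differences of 0.14, -0.30 and -0.33 in cpr5 against WT, none of them called.

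In plants with npr1, cpr5npr1 against npr1 gave calls for AT1G13650 and AT1G55960, both of which fell, where 5.12% of all probe sets were called (0.798% lower). This comparison shares the cpr5npr1 arrays with the svi1 contrast. AT1G13650 had 162 ± 5.99 in cpr5npr1 and 399 ± 18.6 in npr1 (log2 change -1.30, SE 0.176, limma adjusted p = 0.00162). AT1G55960 had 260.0 ± 4.61 in cpr5npr1 and 614 ± 87.1 in npr1 (log2 change -1.23, SE 0.196, limma adjusted p = 0.00424), and dropping npr1 replicate 1 ended the call (0.0508). AT5G50915 had 224 ± 72.0 in cpr5npr1 and 128 ± 14.0 in npr1, and its log2 difference of 0.78 passed with the replicate block (adjusted p = 0.0115), and not without it (limma adjusted p = 0.156). With the block, 3 of the 7 were called, where 10.4% of all probe sets were. EXO, at 682 ± 63.0 in cpr5npr1 and 577 ± 46.7 in npr1, had a log2 difference of 0.24 (limma adjusted p = 0.729).

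The comparison of npr1 with WT shares no array with the contrasts that chose the genes. By limma none of the 7 genes was called, where 1 probe set of the 15922 (0.00628%) was. At an unadjusted p below 0.05 the count was 1 of 7, where 5.65% of all probe sets passed, and with the replicate block 0 of 7 were called, where 0.0251% of all probe sets were. The gene behind that count was AT5G02230, at 79.8 ± 15.8 in npr1 and 132 ± 13.3 in WT (log2 difference -0.74, SE 0.196, limma adjusted p = 0.599). The log2 differences of the other 6 lay between -0.24 for AT1G55960 and 0.37 for AT3G23550.

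Between cpr5npr1 and cpr5, which share arrays with both choosing contrasts, limma again called none of the 7, where 0.044% of all probe sets were called. With the replicate block the count was also 0 of 7, where 0.0942% were called. At an unadjusted p below 0.05 the count was 3 of 7, where 3.9% of all probe sets passed. These were AT1G55960 (log2 difference -0.91, SE 0.196, limma adjusted p = 0.378), AT1G13650 (-0.78, SE 0.176, limma adjusted p = 0.446) and EXO (-0.64, SE 0.268, limma adjusted p = 1.0). The arrays of cpr5npr1 and cpr5 did not overlap for 5 of the 7 genes, and for 29.7% of all probe sets. Besides these 3, which were lower in cpr5npr1, they were AT5G02230, also lower, and AT3G23550, which was higher. Because of the shared arrays, nothing is read from this count.

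The relatives of these genes and their pathways were looked at through 10 gene lists with 144 genes other than the 7. A named probe set existed for 51 of the 144, of which 36 were tested, so the EXO family and the brassinosteroid synthesis and signalling lists are not analysed here. By limma none of the 36 was called in cpr5scv1 against cpr5 or in cpr5npr1svi1 against cpr5npr1, where 0.804% and 1.15% of all probe sets were called. At an unadjusted p below 0.05 the counts were 4 and 5, where 11.5% and 10.3% of all probe sets passed, and with the replicate block 3 and 6, where 3.8% and 3.97% of all probe sets were called with it. The median log2 difference of the 36 genes was -0.11 and 0.02 in these contrasts, and that of all probe sets -0.03 and -0.01.

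Of the MATE transporter genes, 21 of 52 were tested, and 0 of the 21 were called in both choosing contrasts, where 0.138% of all probe sets were called alike in both. AT3G23550 itself was picked for these contrasts and is not set against them. With the replicate block AT1G66760 (log2 change 1.78, adjusted p = 0.0435), AT5G44050 (1.12, adjusted p = 0.0402), AT1G11670 (0.88, adjusted p = 0.0492) and AT2G38330 (0.75, adjusted p = 0.0354) rose in cpr5npr1svi1 against cpr5npr1. Without it the limma adjusted p of these 4 was 0.186, 0.118, 0.0975 and 0.569. Their log2 differences between cpr5scv1 and cpr5 were 0.30 for AT1G66760, -0.09 for AT5G44050, 0.59 for AT1G11670 and -0.14 for AT2G38330, none called with or without the block. Against WT, AT1G71140 rose in cpr5scv1 (log2 change 1.18, limma adjusted p = 0.00208), in cpr5npr1svi1 (1.34, 0.00195) and in cpr5 (1.15, 0.00529), and AT1G11670 fell in cpr5 (-1.47, 0.00227) and cpr5scv1 (-0.88, 0.0158). In cpr5scv1 against WT, AT2G04070 also rose (1.62, 0.0271) and AT1G15180 fell (-0.80, 0.0438), which makes 4 of 21 called, where 22.4% of all probe sets were, a share near the background. Of all 36 list genes, 6 were called there. In cpr5npr1 against npr1, AT5G44050 fell (-1.16, 0.0492). With the block alone, AT1G71140 was called in cpr5npr1 against npr1 (0.70, adjusted p = 0.0419; 0.0766 without it) and AT2G04070 in cpr5npr1svi1 against WT (1.502, adjusted p = 0.0145; 0.057 without it). AT1G33110 was called in the same way in cpr5scv1 against WT (-0.49, adjusted p = 0.0481; 0.346 without it) and in cpr5npr1svi1 against WT (-0.69, adjusted p = 0.0162; 0.236 without it), where the block called 34.0% and 21.4% of all probe sets.

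The other families gave few calls. None of 5 tested START domain genes passed in any of the 8 comparisons without the block, where the share of all probe sets called ran from 0.00628% (npr1 against WT) to 22.4% (cpr5scv1 against WT). With it, AT3G13062 fell in cpr5npr1svi1 against cpr5npr1 (log2 change -0.80, adjusted p = 0.0122; 0.182 without it) and against WT (-0.73, adjusted p = 0.00515; 0.0794 without it). Of 3 tested hydrolase genes, AT5G59480 fell in cpr5scv1 against WT (log2 change -1.06, limma adjusted p = 0.00928). Against cpr5 it had 94.3 in cpr5scv1 and 164 in cpr5, and was called with the block (log2 change -0.81, adjusted p = 0.0182) and not without it (0.175). In cpr5npr1svi1 against WT the block called it too (-0.66, adjusted p = 0.0112; 0.105 without it). None of 3 tested basic helix-loop-helix genes was called in either choosing contrast. In cpr5scv1 against WT, AT2G42300 (-0.68, adjusted p = 0.0382, and 0.0656 without it) and AT5G62610 (0.53, adjusted p = 0.0179, and 0.0511 without it) were called with the block. The block called 34.0% of all probe sets in cpr5scv1 against WT and 21.4% in cpr5npr1svi1 against WT. It called 3.8% in cpr5scv1 against cpr5 and 3.97% in cpr5npr1svi1 against cpr5npr1.

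Of the genes that respond to brassinosteroids or EXO, EXPA8, an expansin gene for cell wall loosening, was the one tested. It had signals of 480.1 in cpr5npr1svi1 and 69.5 in cpr5npr1 (log2 difference 2.83), opposite in sign to EXO, and passed with the block (adjusted p = 0.000352) and not without it (limma adjusted p = 0.0513). Between cpr5scv1 and cpr5 its log2 difference was 0.68 (limma adjusted p = 0.778). In cpr5 against WT it was at -1.67, again called with the block (adjusted p = 0.000959) and not without it (0.115). The same held in cpr5npr1 against npr1 (-1.10, adjusted p = 0.0122; 0.39 without the block) and in cpr5scv1 against WT (-0.997, adjusted p = 0.00636; 0.261 without the block). With the block, the share of all probe sets called was 3.97% in cpr5npr1svi1 against cpr5npr1 and 3.8% in cpr5scv1 against cpr5. It was 17.4% in cpr5 against WT, 10.4% in cpr5npr1 against npr1 and 34.0% in cpr5scv1 against WT. Of 11 carbon starvation genes, 2 were tested: AT3G15450 and AKINBETA1, a subunit of the energy-sensing SnRK1 kinase. Their log2 differences between cpr5scv1 and cpr5 were 0.82 and 0.71, called with the block (adjusted p = 0.0148 and 0.0143) and not without it (0.0697 and 0.0735). Between cpr5npr1svi1 and cpr5npr1 they had the other sign, at -0.15 and -0.10, and were not called (limma adjusted p = 0.902 and 0.935). In cpr5 against WT, AT3G15450 was at -0.60, called with the block (adjusted p = 0.0185) and not without it (0.065). Against WT, AKINBETA1 rose in cpr5scv1 (log2 change 0.60, limma adjusted p = 0.0199). The clock gene GI, the one tested of its list, had log2 differences of 0.02 between cpr5scv1 and cpr5 and 0.05 between cpr5npr1svi1 and cpr5npr1.

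The 7 genes lie on chromosomes 1, 3, 4 and 5, and none of them is next to another. For each, the nearest tested and named gene on either side was compared. By limma none of these 14 neighbours was called in either choosing contrast, where 0.804% and 1.15% of all probe sets were, at log2 differences from -0.98 to 0.38 between cpr5scv1 and cpr5, and from -0.65 to 0.38 between cpr5npr1svi1 and cpr5npr1. At an unadjusted p below 0.05 the counts were 1 and 0 of 14, where 11.5% and 10.3% of all probe sets passed, so nothing is read from them. The 1 was AT4G08940, adjacent to EXO, with 26.2 in cpr5scv1 and 51.5 in cpr5 (log2 difference -0.98, limma adjusted p = 0.103), which was called with the replicate block (adjusted p = 0.0451). Between cpr5npr1svi1 and cpr5npr1 the difference of AT4G08940 was -0.30 (limma adjusted p = 0.807).

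**Figure D4:**
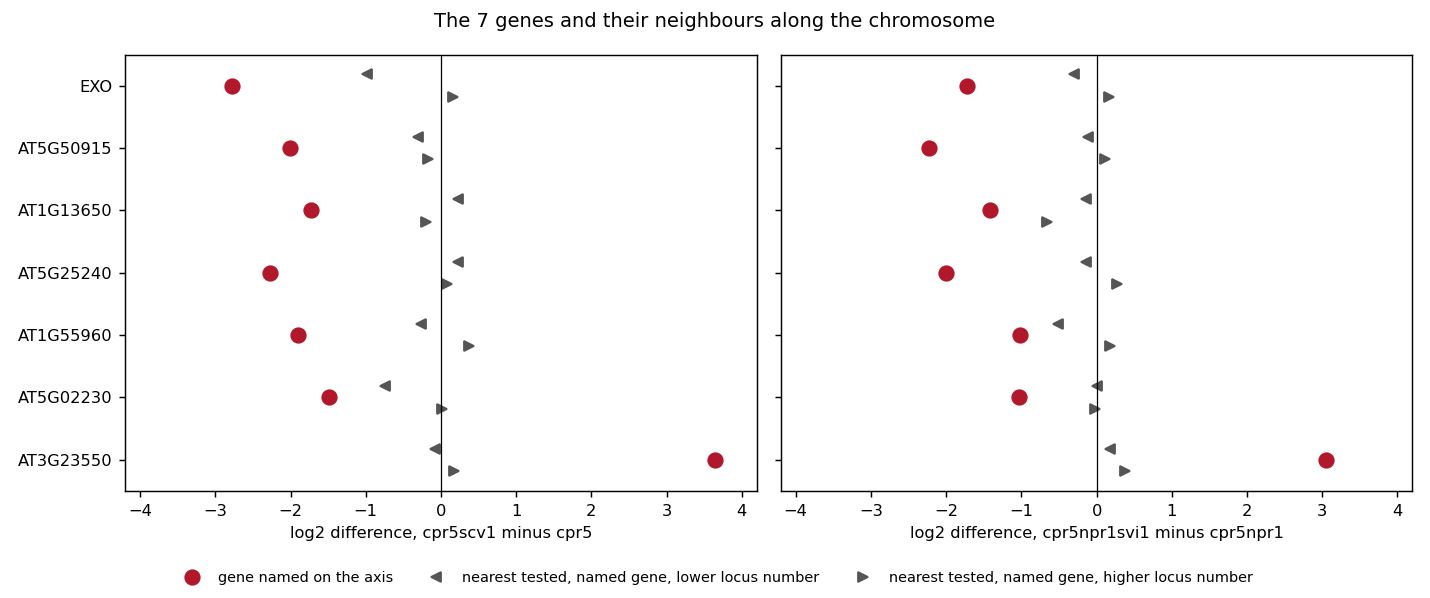
Log2 differences of the 7 genes (circles) and of the nearest tested, named gene on either side of each along the chromosome (triangles), for cpr5scv1 minus cpr5 (left) and cpr5npr1svi1 minus cpr5npr1 (right). The triangles lie between -0.98 and 0.38; the circles lie farther from 0 because the 7 genes were chosen on these contrasts.

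Among the 6 lower genes, log2 signals over the 12 arrays correlated at r = 0.582 to 0.972 in 15 pairs, and AT3G23550 correlated with them at -0.924 to -0.802. The arrays fall into groups that differ in these genes by choice, so these values describe the grouping. Within groups, where replicate 2 was set against replicate 1 in the 6 genotypes, r ran from -0.815 to 0.744 among the 6 and from -0.624 to 0.619 with AT3G23550.

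The 3 named genes most like each of the 7, by Pearson's r of log2 signal over the 12 arrays, were 21 different genes with r from 0.893 to 0.971. Within groups their r ran from -0.547 to 0.853 and was below 0 for 7 of the 21. EXO was most like AT2G35470 (r = 0.956), RALFL33, a gene for a RALF-type peptide signal (0.930), and the beta-glucosidase gene BGLU40 (0.924). RALFL33 had a mean signal of 207 in cpr5scv1, 207 in cpr5npr1svi1, 444 in cpr5npr1, 439 in cpr5, 361 in npr1 and 436 in WT. Within groups its r with EXO was 0.835, against -0.0069 for AT2G35470 and -0.419 for BGLU40. These genes were picked on the same arrays, so nothing is read from the r within groups. AT5G25240 was most like the wall enzyme gene EXGT-A3 (r = 0.971), which had 416 in cpr5scv1, 417 in cpr5npr1svi1, 783 in cpr5npr1, 909.9 in cpr5, 932 in npr1 and 786 in WT. Both genes were thus near one level in the 4 genotypes without scv1 and svi1 and lower in the other two.

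AT1G13650 was most like AT2G20670 (r = 0.959), which had 153 in cpr5scv1, 154 in cpr5npr1svi1, 276 in cpr5npr1, 337 in cpr5, 645 in npr1 and 704 in WT. AT1G55960 was most like AT5G62140 (r = 0.966), AT5G50915 was most like AT1G65490 (r = 0.925), and AT5G02230 was most like ARD4, an acireductone dioxygenase gene (r = 0.944). AT3G23550 was most like CYP71B6 (r = 0.953), with 274 in cpr5scv1, 272 in cpr5npr1svi1 and 119.5 to 151.5 in the other 4 genotypes. All 5 named genes outside the 7 that were called alike in both contrasts were among the 21. Such an overlap is likely, because the 7 genes were chosen on these same contrasts and arrays, so nothing is read from it.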

How the data were processed

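The authors deposited MAS5 signal intensities of ATH1 probe sets, which are linear (MAS5 per the submitters' processing notes, the scale from the values); version, detection calls and scaling target are not stated there. The mean signal, trimmed by 2% at each end, was 100.01 in each array. The log2 of the signal was fitted without further normalization or pseudocount in one limma 3.58.1 model (R 4.3.3, eBayes with intensity trend) of 6 group means over 12 arrays, with 64 control sets and the dimmest 30% left out. The script was tested on simulated data. A call is a Benjamini-Hochberg adjusted p below 0.05 over 15922 probe sets within a contrast. Probe sets were named through the platform annotation and the TAIR10.1 gene table: 13513 had 1 gene, 503 several and 8730 none listed. Genes are placed by locus code only. The number of arrays limits the precision.

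The 7 genes and the gene lists were chosen with earlier results of these data known. Named were the 7 genes, the 3 genes most like each, called list members (up to 4 per list and contrast) and the nearest neighbours; the 5 other genes called alike, IAGLU, list members called with the block only and single list members were named after their values were seen. Replicate numbers come from the titles. Deviations of same-numbered arrays went together in all 15 pairs of groups (r = 0.175 to 0.363). Differences given by replicate number take the numbers as pairs, while the main calls leave this pairing out. The model above has no block; the fit with the replicate block is given beside the 7 genes, list genes and neighbours whose call it changes. Alternatives were quantile normalization, scaling to one median, no filter, a 50% filter, a pseudocount of 32, no intensity trend, only the groups compared, the replicate block, and leaving out each array; a lone array was then assumed to vary like the other groups.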

Additional observations from a re-analysis of the deposited data

How the results depend on the processing

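Of the 7 genes, 2 were called in cpr5 against WT, which became 1 with only the groups compared or without the intensity trend, 4 with the replicate block, and 0 to 3 when 1 array was left out. Leaving out 1 array gave 1 to 2 in cpr5npr1 against npr1, 6 to 7 in cpr5npr1svi1 against WT, 6 in cpr5scv1 against WT, and 0 in npr1 against WT and cpr5npr1 against cpr5. The 22 probe sets called alike became 10 without the intensity trend, 8 with only the groups compared, 123 with the block, and 2 to 47 when 1 array was left out. These alternatives for that count and for the lists were chosen after the data were examined. Called list genes in cpr5scv1 against cpr5 were 3 with the block (0 to 1 with 1 array left out). In cpr5npr1svi1 against cpr5npr1 they were 6 with the block, and 1 with quantile normalization, the 50% filter, a pseudocount of 32 or only the groups compared (0 to 1). In cpr5 against WT they were 4 with the block and 1 with the 50% filter or only the groups compared (1 to 3). In cpr5npr1 against npr1 they were 3 with the block, and 0 with the 50% filter, with only the groups compared, or without the filter or the intensity trend (0 to 1). In cpr5scv1 against WT they were 10 with the block and 2 with only the groups compared (1 to 6). In cpr5npr1svi1 against WT they were 5 with the block, 4 after scaling to one median, and 2 with no filter, a pseudocount of 32 or only the groups compared (1 to 5), and in npr1 against WT 0 to 1. In the main fit the called list genes were 0 of 36 in cpr5scv1 against cpr5 and in cpr5npr1svi1 against cpr5npr1. They were 2 in cpr5 against WT, 1 in cpr5npr1 against npr1, 6 in cpr5scv1 against WT and 1 in cpr5npr1svi1 against WT. With the block, the share of all probe sets called in these contrasts, in the same order, was 3.8%, 3.97%, 17.4%, 10.4%, 34.0% and 21.4%. The cause of the shifts between fits was not tested.

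Sign changes occurred only for values that were not called. After scaling to one median, AT5G25240 was at -0.0586 in cpr5 against WT, EXO at -0.0213 in npr1 against WT and AT5G02230 at -0.0326 in cpr5npr1 against npr1. Leaving out 1 array gave -0.41 to 0.69 for AT5G25240 and -0.99 to 0.32 for AT3G23550 in cpr5 against WT. In npr1 against WT it gave -0.0537 to 0.11 for EXO, -0.0011 to 0.50 for AT5G50915, -0.0437 to 0.60 for AT5G25240 and -0.28 to 1.02 for AT3G23550. In cpr5npr1 against npr1 it gave -0.0928 to 0.31 for AT5G02230 and -0.49 to 0.44 for AT3G23550, and in cpr5npr1 against cpr5 -0.64 to 0.0319 for AT5G50915 and -0.97 to 0.14 for AT5G25240. Scaling to one median moved the median of all probe sets to -0.17 in cpr5, -0.20 in cpr5scv1 and -0.15 in cpr5npr1svi1, each against WT, and to -0.14 in cpr5npr1 against npr1, with values of 0.02, -0.01, 0.04 and -0.00 before it. The differences that chose the 7 genes kept their signs under the alternatives run. The choice of the genes on these same arrays makes that likely, so nothing is read from it. Among the 7 genes, the replicate block changed no calls other than those of EXO and AT1G55960 in cpr5 against WT, and of AT5G50915 in cpr5scv1 against WT and cpr5npr1 against npr1.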
